A study of Mus musculus with 8 samples.

Results

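Of the 55401 genes measured in mouse AtT-20 cells carrying ER-Pax7, 19 had a very low RNA level at the start of tamoxifen treatment and a higher one after 48 and 72 h. They were chosen by their own values: a transcript length of at least 1000 bases, a signal of at most 0.15 in both 0 h libraries, a signal of at least 0.1 and at least 2 times the higher 0 h value in both 72 h libraries, and both 48 h values above both 0 h values. Of the 30358 genes long enough, 21 met these thresholds. Oacyl was left out by name, and Cd74 was set aside because its neighbour Mir5107 had nearly the same value in 48 h replicate 1, 0.126 for Cd74 and 0.129 for Mir5107, a gap of 2.29%. Mir5107 lies inside the span of Cd74 on the same strand and shares 12 exonic bases with it, so their reads cannot be fully told apart. The signal is the authors' normalized value, read here as mean read coverage per base of a gene's merged exons. That reading was inferred from the values and columns, and comparisons of levels between genes assume it. The 0, 48 and 72 h values of the 19 genes made them members and are given as a description, with no test; only the 24 h libraries took no part in the choice.

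AtT-20 is a mouse pituitary tumour line of corticotropes, the cells that make the hormone precursor Pomc. ER-Pax7 is Pax7 joined to an estrogen receptor part, which tamoxifen activates. The 4 groups of 2 libraries were ER-Pax7 cells given tamoxifen for 0, 24, 48 and 72 h. All 8 libraries carried ER-Pax7 and no vehicle-treated time course was used here, so ER-Pax7 activity, tamoxifen itself and hours in culture cannot be told apart. Nothing in the labels marks the replicates as separate cultures; errors and p-values therefore cover the spread of these libraries alone, and that spread may be technical. In bulk RNA, fewer cells expressing a gene and less RNA per cell cannot be told apart. Summed signal was 164236 to 178548 per library and 9516 to 9608 genes had a signal of at least 1; the sources used here give no read depth, so no counting error can be set beside the low values.

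Pax7 is a pioneer transcription factor: it can bind its sites in closed chromatin and open them, and in the pituitary it specifies melanotropes, the Pomc cells of the intermediate lobe. It is also known in skeletal muscle stem cells. Genes without active promoters are often kept off by closed chromatin and, where CpG dinucleotides are methylated, by DNA methylation, and loss of DNA methylation through Pax7 is the subject named in the title of the series. The 19 genes belong to no single pathway. They include a cartilage matrix protein, a muscle filament protein, a nuclear receptor, a corepressor, a decoy receptor and several RNAs with no known protein; 14 are annotated as protein-coding and 5 as antisense RNAs, a processed transcript or a transcribed pseudogene. They lie on 12 chromosomes.

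The label of these genes, nearly silent and then switched on, holds only in part. Their 0 h means ran from 0.0220 to 0.148, with a median of 0.0598, and each lay above the 0 h means of 43.6% to 56.8% of all genes of at least 1000 bases, many of which were at or near 0. At 72 h their means ran from 0.101 to 0.464, with a median of 0.254, above those of 54.5% to 64.8% of these genes, and 0 of the 19 reached a signal of 1. Pomc, the main hormone gene of these cells, had a signal of 662 and 679 at 72 h. On this reading of the signal, the genes were therefore low at every time rather than off and then on.

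The bases before the annotated start are shown for the 4 protein-coding genes with the highest ratio of 72 h to 0 h, to set their CpG content side by side; each run is the 200 bases upstream of the RefSeq start in GRCm38, 5′ to 3′ on the gene's strand. Capitals mark CpG dinucleotides, and in Gm572, which has none, a TAATTA match. Cilp, chr9:65264980-65265179, forward strand, holds 2 CpGs. Gm572, chr4:148643117-148643316, forward strand, holds 0. Mybpc1, chr10:88605153-88605352, reverse strand, holds 11, and Fam178b, chr1:36683184-36683383, reverse strand, holds 20.
Cilp: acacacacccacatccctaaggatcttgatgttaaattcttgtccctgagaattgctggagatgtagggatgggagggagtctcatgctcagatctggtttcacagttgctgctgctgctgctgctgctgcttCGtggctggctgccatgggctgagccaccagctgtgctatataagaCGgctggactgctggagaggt
Gm572: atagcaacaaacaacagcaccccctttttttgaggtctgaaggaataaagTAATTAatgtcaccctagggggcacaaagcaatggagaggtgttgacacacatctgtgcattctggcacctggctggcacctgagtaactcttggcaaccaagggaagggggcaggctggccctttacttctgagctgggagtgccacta
Mybpc1: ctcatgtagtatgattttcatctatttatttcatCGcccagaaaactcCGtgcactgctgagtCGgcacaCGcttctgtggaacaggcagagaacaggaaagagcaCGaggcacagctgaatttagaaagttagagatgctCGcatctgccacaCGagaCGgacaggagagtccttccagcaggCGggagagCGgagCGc
Fam178b: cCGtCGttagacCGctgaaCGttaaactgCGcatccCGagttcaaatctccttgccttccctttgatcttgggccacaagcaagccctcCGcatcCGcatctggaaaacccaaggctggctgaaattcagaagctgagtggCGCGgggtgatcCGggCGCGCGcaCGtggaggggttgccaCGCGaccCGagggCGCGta
The runs for Cilp and Gm572 are nearly free of CpG, whereas that for Fam178b is CpG-dense.

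A RefSeq promoter window, from 250 bases before to 50 after the start and within 500 bases of the gene's 5′ end in the files, was found for 17 of the 19 genes. The ratio of observed to expected CpG in it ran from 0 in Gm572 to 0.951 in Fam178b, with Cilp at 0.172, Mybpc1 at 0.678 and Nr4a3 at 0.866. The median was 0.504 in the 17, against 0.329 in the 4197 other genes under the 0 h ceiling and 0.574 in all 17109 genes with a window. A ratio of at least 0.6 was found in 5 of 17 (29.4%), against 24.7% of the other low genes and 48.1% of all genes. The 17 genes thus have both CpG-poor and CpG-rich promoters. Motifs were searched on both strands. TAATTA, a homeodomain core, was in 1 of 17 windows (5.88%, Gm572), against 5.12% of the other low genes. A palindrome of 2 TAAT cores facing each other with 2 bases between was in 0 of 17, against 0.334%. TCACACC, a T-box core, was in 2 of 17 (11.8%, Fndc4 and Nr4a3), against 4.003%, and TATAAA was in 2 of 17 (11.8%, Apobec2 and Tnfrsf23), against 13.1%. The 2 homeodomain motifs can overlap in sequence. A match to these letters is a description and not a site, and no match says only that the letters are not in the window.

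**Figure D1:**
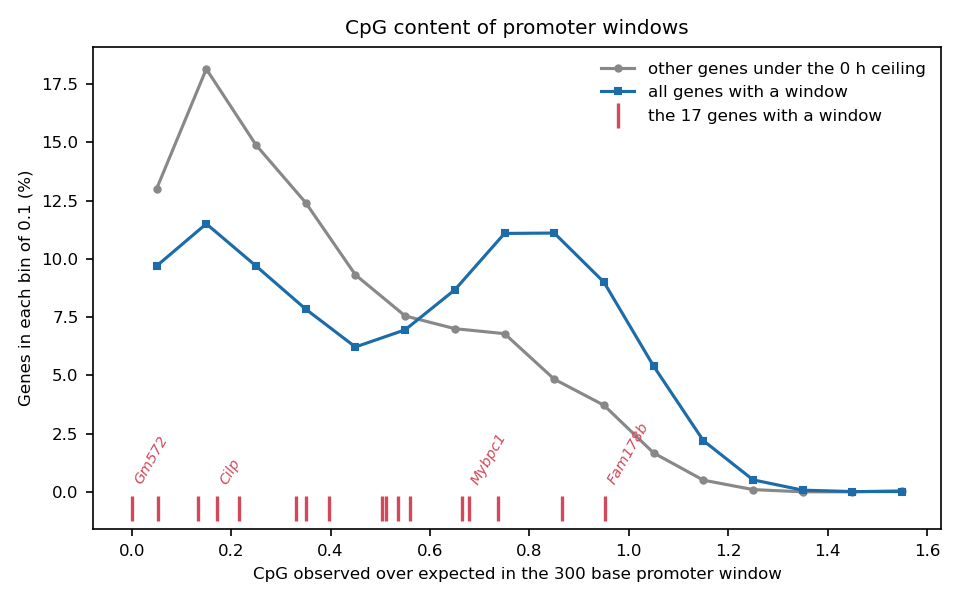
CpG observed over expected in the 300 base promoter window (x axis) against the percent of genes in each bin of 0.1 (y axis), for other genes under the 0 h ceiling (grey) and all genes with a window (blue); values above the last bin are counted in it. Red ticks are the 17 members with a window, which spread from 0 to 0.951 and do not gather at one end.

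Cilp, on chromosome 9 (65265180 to 65280605, forward strand), encodes cartilage intermediate layer protein, a secreted matrix protein. Its signal was 0.0458 and 0.0622 at 0 h, 0.230 and 0.264 at 24 h, 0.451 and 0.364 at 48 h, and 0.486 and 0.442 at 72 h. The groups at 0, 24 and 48 h do not overlap and the 48 and 72 h groups do, so most of the difference was present by 48 h. The ratio of the 72 h mean to the 0 h mean was 8.60, the highest of the 19. Mybpc1, on chromosome 10 (88518279 to 88605152, reverse strand), encodes the slow skeletal form of myosin-binding protein C, a protein of the muscle thick filament. Its signal was 0.0616 and 0.0456 at 0 h, 0.130 and 0.121 at 24 h, 0.269 and 0.244 at 48 h, and 0.304 and 0.398 at 72 h. No neighbouring groups in time overlap for Mybpc1, and its ratio of 72 h to 0 h means was 6.55.

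Apobec2 and Fkbp1b also have a known link to muscle. Apobec2, on chromosome 17 (48419231 to 48432930, reverse strand), is a member of the cytidine deaminase family expressed in skeletal and heart muscle. Its signal was 0.111 and 0.109 at 0 h, 0.125 and 0.117 at 24 h, 0.236 and 0.275 at 48 h, and 0.287 and 0.255 at 72 h. The 24 h values lay just above the 0 h values, and the step came between 24 and 48 h. Fkbp1b, on chromosome 12 (4833174 to 4841591, reverse strand), encodes an FK506-binding protein that binds ryanodine receptors, the calcium release channels. Its signal was 0.0614 and 0.0428 at 0 h, 0.0607 and 0.0917 at 24 h, 0.119 and 0.0889 at 48 h, and 0.183 and 0.169 at 72 h. The 0 and 24 h groups overlap, as do the 24 and 48 h groups, and the 72 h values stand above all others.

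The regulators of transcription followed separate courses. Nr4a3, on chromosome 4 (48045153 to 48086447, forward strand), encodes an orphan nuclear receptor that is also an immediate early gene. Its signal was 0.148 and 0.148 at 0 h, 0.114 and 0.174 at 24 h, 0.205 and 0.245 at 48 h, and 0.414 and 0.399 at 72 h. The 24 h values lay on either side of the 0 h values, and the 72 h values were above all others; it stood just under the 0 h ceiling. Cbfa2t3, on chromosome 8 (122625141 to 122699109, reverse strand), encodes a corepressor of the ETO family known in blood cell development. Its signal was 0.128 and 0.0998 at 0 h, 0.234 and 0.195 at 24 h, 0.208 and 0.282 at 48 h, and 0.283 and 0.356 at 72 h. The 24 and 48 h groups overlap and the 72 h values lie just above them. Zfp92, on chromosome X (73411096 to 73428385, forward strand), encodes a KRAB zinc finger protein. Its signal was 0.0654 and 0.0208 at 0 h, 0.0517 and 0.0936 at 24 h, 0.135 and 0.112 at 48 h, and 0.135 and 0.138 at 72 h. Its 0 and 24 h groups overlap, and its 0 h libraries were far apart.

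Genes of receptors, secreted factors and the ubiquitin-like system made up another group. Tnfrsf23, on chromosome 7 (143665809 to 143685872, reverse strand), encodes a mouse decoy receptor for the death ligand TRAIL. Its signal was 0.0809 and 0.0735 at 0 h, 0.104 and 0.121 at 24 h, 0.163 and 0.185 at 48 h, and 0.281 and 0.223 at 72 h. Each later group lay above the one before it. Uba7, on chromosome 9 (107975505 to 107984060, forward strand), encodes the activating enzyme for the ubiquitin-like modifier Isg15. Its signal was 0.0667 and 0.0789 at 0 h, 0.0955 and 0.134 at 24 h, 0.119 and 0.0989 at 48 h, and 0.180 and 0.194 at 72 h. The 24 and 48 h groups overlap, with the 72 h values above both. Fndc4, on chromosome 5 (31292242 to 31296080, reverse strand), encodes a fibronectin type III domain protein whose outer part is shed as a secreted factor. Its signal was 0.0410 and 0.0425 at 0 h, 0.0728 and 0.0609 at 24 h, 0.0632 and 0.0797 at 48 h, and 0.124 and 0.164 at 72 h. Here too the 24 and 48 h groups overlap. Olfr329, on chromosome 11 (58539801 to 58546422, reverse strand), is an olfactory receptor gene. Its signal was 0.0579 and 0.0617 at 0 h, 0.0466 and 0.0528 at 24 h, 0.0709 and 0.0983 at 48 h, and 0.161 and 0.170 at 72 h. Both 24 h values were below both 0 h values, and the 72 h values were above all others.

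Among genes of the less studied kind, Gm572, on chromosome 4 (148643317 to 148671572, forward strand), had a signal of 0.0593 and 0.0584 at 0 h, 0.279 and 0.180 at 24 h, 0.333 and 0.452 at 48 h, and 0.380 and 0.398 at 72 h. The 72 h values lie within the range of the 48 h values, and the ratio of the 72 h mean to the 0 h mean was 6.60. Fam178b, on chromosome 1 (36562692 to 36683183, reverse strand), had a signal of 0.0826 and 0.0842 at 0 h, 0.185 and 0.206 at 24 h, 0.223 and 0.212 at 48 h, and 0.390 and 0.335 at 72 h. It went up in 2 steps, by 24 h and again after 48 h. Tmem255b, on chromosome 8 (13435189 to 13468473, forward strand), a predicted membrane protein gene, had a signal of 0.0674 and 0.0988 at 0 h, 0.169 and 0.254 at 24 h, 0.312 and 0.273 at 48 h, and 0.232 and 0.289 at 72 h. The 72 h range overlaps both the 24 h and the 48 h range, and the highest value was at 48 h.

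The 5 genes not annotated as protein-coding had low values throughout. E330020D12Rik, a processed transcript on chromosome 1 (153404827 to 153414233, reverse strand), had a signal of 0.0265 and 0.0176 at 0 h, 0.0300 and 0.0588 at 24 h, 0.1012 and 0.1001 at 48 h, and 0.185 and 0.138 at 72 h. Its ratio of 72 h to 0 h means, 7.33, was second only to that of Cilp, from the lowest 0 h mean of the 19. 9430041J12Rik, an antisense RNA on chromosome 7 (4074125 to 4120728, reverse strand), had 0.109 and 0.105 at 0 h, 0.159 and 0.184 at 24 h, 0.144 and 0.125 at 48 h, and 0.234 and 0.296 at 72 h. Its 48 h values were below its 24 h values. Gm48435, an antisense RNA on chromosome 10 (121350460 to 121351644, forward strand), had 0.0411 and 0.0270 at 0 h, 0.0711 and 0.0934 at 24 h, 0.111 and 0.205 at 48 h, and 0.125 and 0.149 at 72 h. Its 48 h libraries were far apart and bracket both 72 h values. Gm7854, an antisense RNA on chromosome 5 (43151686 to 43235355, reverse strand), had 0.0394 and 0.0400 at 0 h, 0.0392 and 0.0750 at 24 h, 0.120 and 0.0857 at 48 h, and 0.102 and 0.101 at 72 h. Gm8256, a transcribed pseudogene on chromosome 14 (44613533 to 44618904, forward strand), had 0.120 and 0.0892 at 0 h, 0.217 and 0.127 at 24 h, 0.166 and 0.164 at 48 h, and 0.246 and 0.261 at 72 h. Gm7854 had no further gain after 48 h, while Gm8256 had its highest values at 72 h.

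**Figure D2:**
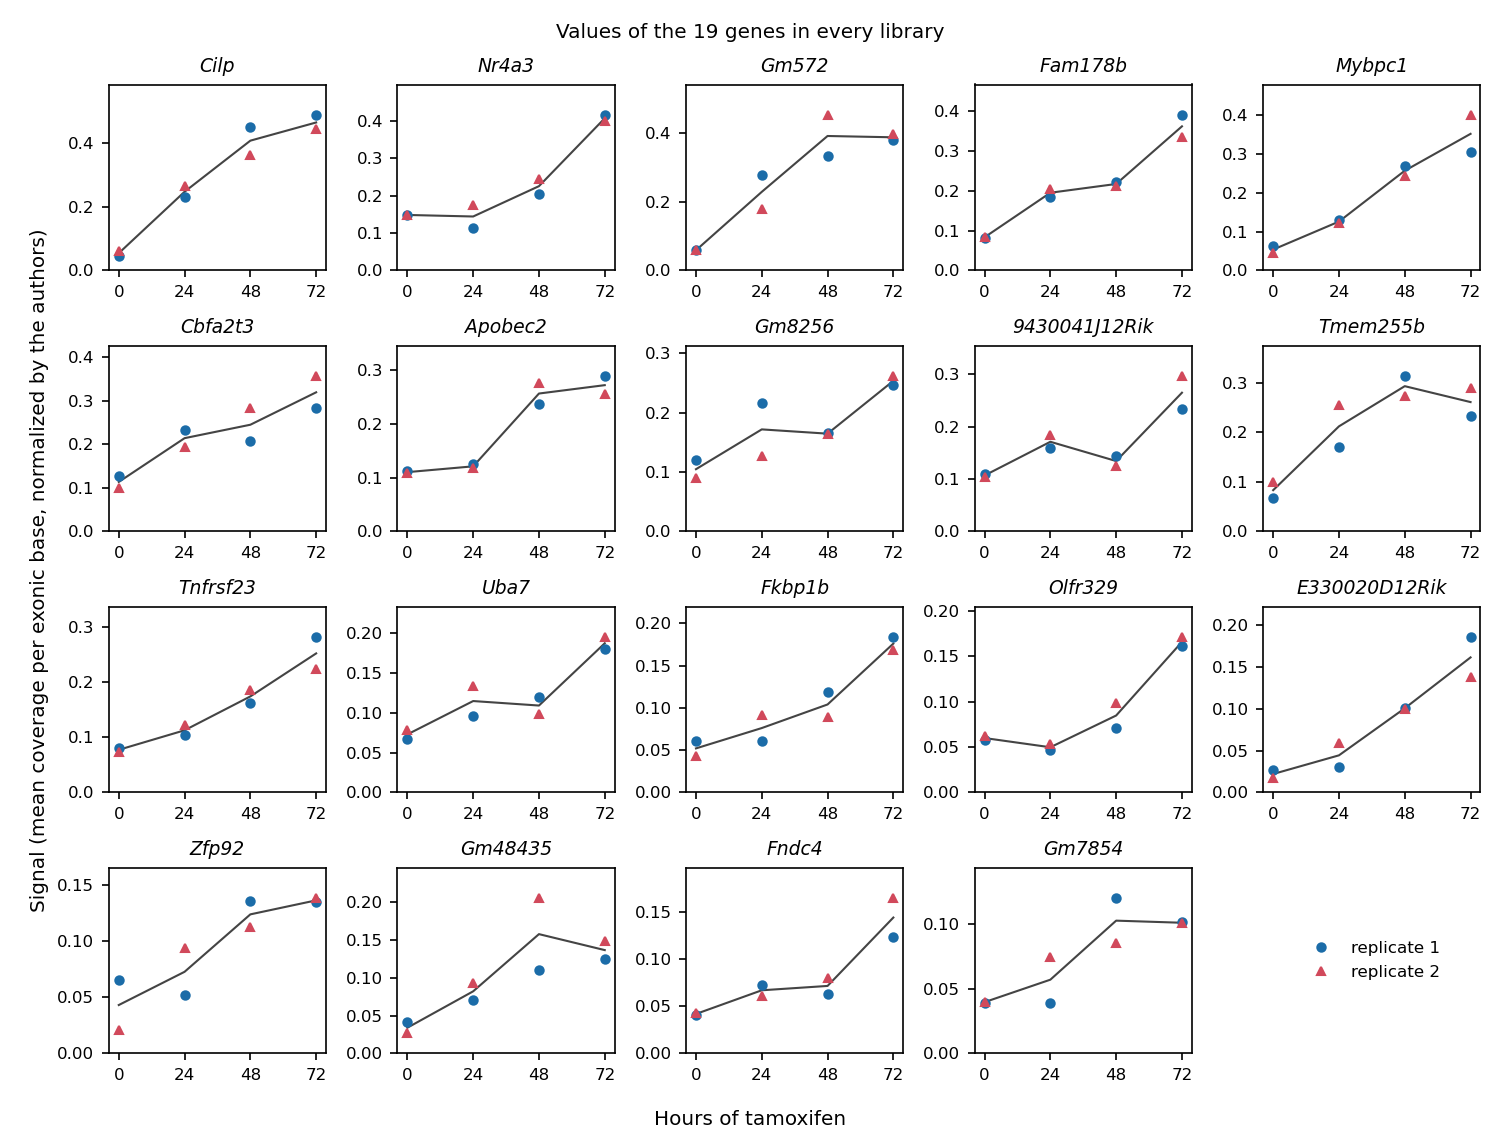
Signal (y axis, from 0, scaled to each gene) against hours of tamoxifen (x axis) for each of the 19 genes; points are the 2 libraries of each time and the line joins their means. Cilp and Mybpc1 go up from 24 h on, Nr4a3 and Olfr329 only after 24 h, and Tmem255b is highest at 48 h.

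The 19 genes did not share a time course. The ratio of means to 0 h had a median of 1.64 at 24 h (range 0.830 to 4.57), 2.33 at 48 h (range 1.26 to 7.54) and 3.16 at 72 h (range 2.42 to 8.60). The means went up at every step in 10 of the 19. In 4, Gm572, Tmem255b, Gm48435 and Gm7854, the 48 h mean was above the 72 h mean. In 3, Gm8256, 9430041J12Rik and Uba7, the 48 h mean was below the 24 h mean. The share of the difference between the 72 and 0 h means that was present at 24 h ran from -9.59% (Olfr329) to 72.5% (Tmem255b), with a median of 31.7%.

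**Figure D3:**
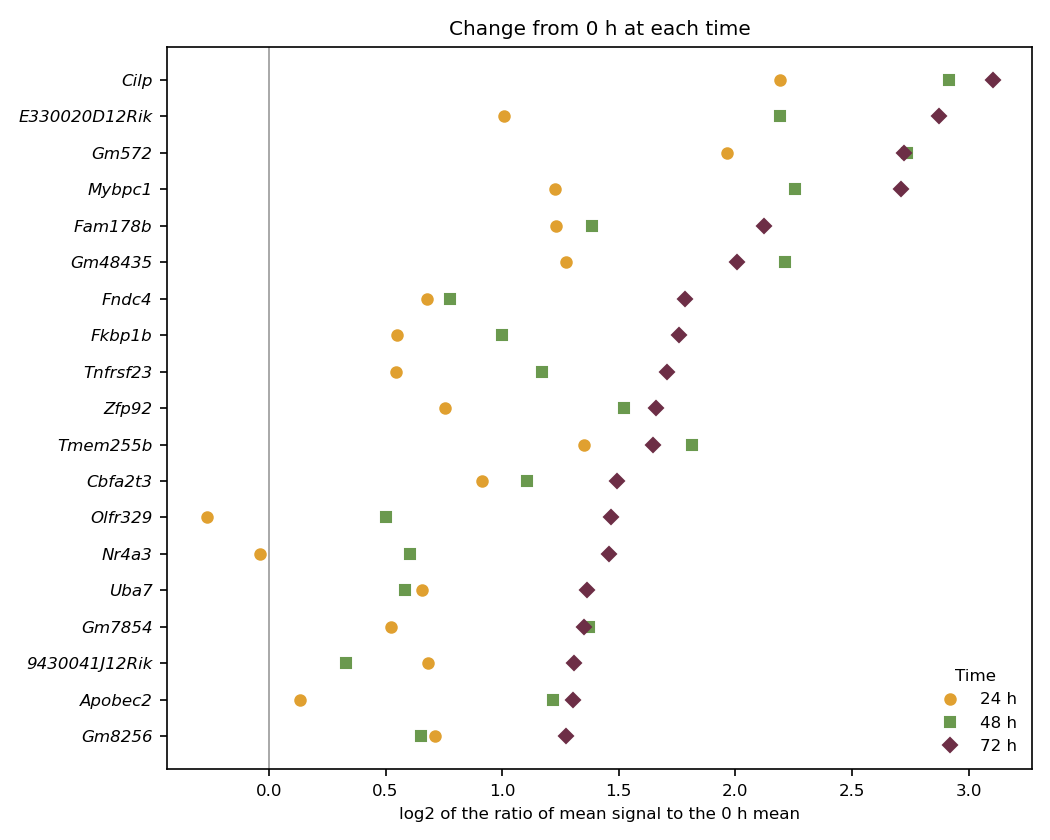
Log2 of the ratio of mean signal at 24, 48 and 72 h to the 0 h mean (x axis) for each of the 19 genes, ordered by the 72 h ratio with Cilp at the top; each mean is of 2 libraries. The 24 h points of Olfr329 and Nr4a3 lie below 0, and the 48 h points of Tmem255b and Gm48435 lie beyond their 72 h points.

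The 24 h libraries were compared with the 0 h libraries because they took no part in the choice; the 0 h values did, and a low 0 h value is part of the rule. Both 24 h values were above both 0 h values in 14 of the 19 genes, all but Nr4a3, Fkbp1b, Olfr329, Zfp92 and Gm7854. This was so for 11.7% (1277) of the 10869 other genes under the same 0 h ceiling, and for 14.4% (545) of the 3789 of these with a 0 h mean in the range of the 19. The 19 were kept because later values lay above their 0 h values, which favours 0 h values that are low by spread alone. The other genes were not chosen in this way. The gap between the 14 of 19 and these shares is therefore a description and no independent test of a rise by 24 h. In limma on log2(signal + 0.1) over all 37675 genes above 0 in a library, with Benjamini-Hochberg adjustment, 0 of the 19 passed an adjusted p of 0.05 at 24 h, and 3 genes in all did (0.00796%): Mest and Copg2 higher (0.00531%) and Pex5l lower (0.00265%). An unadjusted limma p under 0.05 was found for 7 of the 19, against 8.34% of all genes tested. The log2 change was above 0 in 17 of the 19 and had a median of 0.31, against 0.00 over all genes. Leaving out single libraries gave between 0 and 219 calls over all genes, with 0 of the 19 called each time. The scale understates changes of such low genes. The choice by 0 h values also favours the 7 and the 17 of the 19, but not the figures for all genes. The limma spread, moreover, drew on the later libraries that took part in the choice.

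The largest of these differences was that of Cilp. Its mean was 0.247 ± 0.0241 at 24 h and 0.0540 ± 0.0116 at 0 h (SD, n = 2 each), a log2 change of 1.17 (SE 0.15, limma adjusted p = 0.160). With only genes of a mean signal of at least 0.1 in the fit, the same change passed the threshold (limma adjusted p = 0.0417). That mean was taken over all libraries, so the filter also drew on the later values by which Cilp was chosen. This pass is therefore a description and no independent test. Gm572 averaged 0.229 ± 0.0703 at 24 h and 0.0589 ± 0.000610 at 0 h (SD, n = 2 each), a log2 change of 1.04 (limma adjusted p = 0.296). Tmem255b had a log2 change of 0.76 (limma adjusted p = 0.430) and Fam178b one of 0.69 (limma adjusted p = 0.296). Mybpc1 averaged 0.126 ± 0.00690 at 24 h and 0.0536 ± 0.0114 at 0 h (SD, n = 2 each), a log2 change of 0.56 (limma adjusted p = 0.459). The differences of these 5 genes were larger than the spread between the libraries of either time, but none passed the test over all genes.

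**Figure D4:**
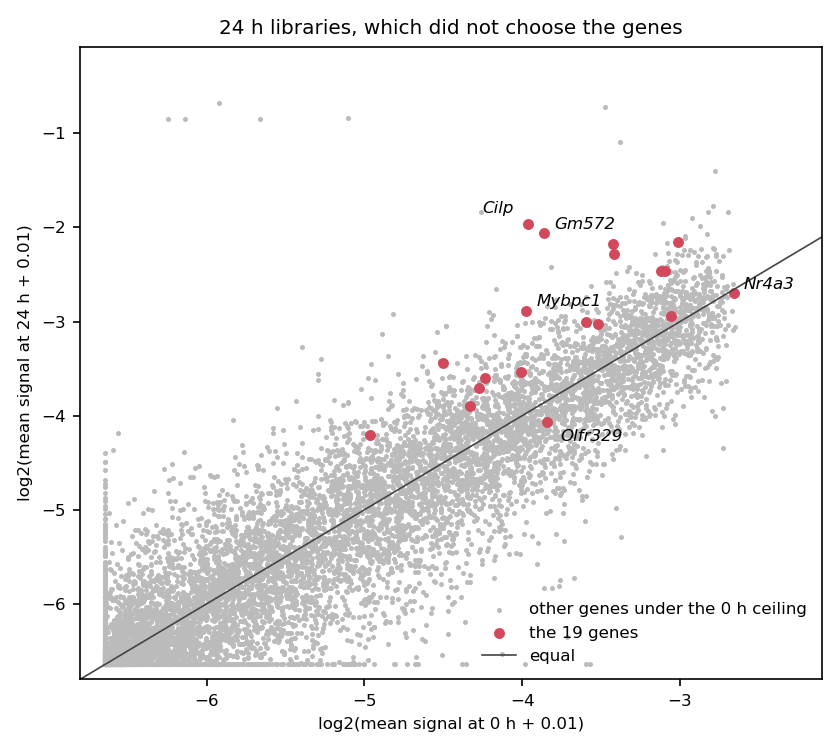
Log2 of the mean signal plus 0.01 at 24 h (y axis) against that at 0 h (x axis), each over 2 libraries, for the 19 genes (red) and the 10869 other genes under the 0 h ceiling (grey); the line marks equal values. Cilp and Gm572 lie farthest above the line among the 19, while Nr4a3 and Olfr329 lie on or below it.

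About as many genes went the other way. With the same thresholds turned round, high at 0 h and low at 72 h, 20 genes qualified, against 21 before any gene was set aside or left out in the rising direction. They include Astn2, a membrane protein of neurons, with 0.102 and 0.0483 at 72 h against 0.530 and 0.486 at 0 h, and Sln, the sarcolipin gene of muscle, with 0.0521 and 0.0727 at 72 h against 0.211 and 0.279 at 0 h. Both counts rest on having 2 libraries at each end. Leaving out the first 0 h library gave 36 genes up and 78 down, and leaving out the second gave 38 up and 58 down. Leaving out the first 72 h library gave 43 up and 36 down, and leaving out the second gave 36 up and 44 down. Astn2 and Sln were named after their values were seen. Both 24 h values were below both 0 h values in 18 of the 20 falling genes, so a shift by 24 h is not particular to the rising genes. The falling genes were likewise chosen with their 0 h values, and no share of other genes was set beside the 18.

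Genes next to the 19 were tested at 72 h against 0 h, a comparison added after the data were seen. Of the 38 genes next to a member by start position, 36 could be tested and 1 passed (limma adjusted p), against 0.207% of all genes in either direction, 0.133% higher and 0.0743% lower; 9 had an unadjusted p under 0.05, against 9.99%. It was Cpeb2, which encodes a regulator of translation and shares 137 exonic bases (9.56%) with Gm7854 on the opposite strand. Cpeb2 had a signal of 0.997 and 0.962 at 72 h against 0.497 and 0.503 at 0 h (log2 change 0.85, SE 0.07, limma adjusted p = 0.0323). Without any single library it missed the threshold, with limma adjusted p from 0.0520 to 0.118. Gas6, the ligand of the TAM receptor kinases, overlaps the end of Tmem255b by 34 exonic bases. It had 0.411 and 0.509 at 72 h against 0.167 and 0.156 at 0 h (limma adjusted p = 0.0785), and it missed membership only by the 0 h ceiling. Tnfrsf22, the decoy receptor gene beside Tnfrsf23, had 0.441 and 0.429 at 72 h against 0.187 and 0.211 at 0 h (limma adjusted p = 0.168).

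Some of the 19 share exonic bases with another gene, and the sources used here do not say whether reads were counted by strand, so reads of such pairs cannot be told apart. No shared bases were found for 8 of the 19, and 3 had over 10% shared. All exonic bases of Gm8256 lie in exons of AC160336.1 on the opposite strand, which had 0.767 and 1.62 at 72 h against 0.282 and 0.356 at 0 h (limma adjusted p = 0.699). Gm48435 shares 25.5% of its bases with Tbc1d30 on the opposite strand, which had 0.272 and 0.244 at 72 h against 0.329 and 0.316 at 0 h (limma adjusted p = 0.702). 9430041J12Rik shares 12.4% of its bases, 180 of them with Ttyh1, a chloride channel family gene, which had 2.34 and 2.15 at 72 h against 1.148 and 1.005 at 0 h (limma adjusted p = 0.0790). Tnfrsf23 has 72.1% of its exonic bases inside the spans of other genes and shares 164 with E230032D23Rik on the opposite strand, which had 0.484 and 0.408 at 72 h against 0.140 and 0.165 at 0 h (limma adjusted p = 0.250). Cbfa2t3 shares 295 exonic bases (3.52%) with Gm10612 on the opposite strand. It also lies wholly inside the span of Galnt2l on the opposite strand, but shares no exonic bases with it. Galnt2l had 6.08 and 6.38 at 72 h against 5.66 and 5.41 at 0 h (limma adjusted p = 0.334). The part of these overlaps in the members' values was not tested. Cilp and Nr4a3 share none, and Mybpc1 shares 252 bases (5.57%) with Gm48752, which had 0.0158 and 0.0409 at 72 h against 0.00252 and 0.00537 at 0 h.

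Relatives and partners of the members were listed after the members were known. Of 27, 26 could be tested, and 1 passed at 72 h against 0 h, Nr4a2, which was lower, against 0.207% of all genes; 6 had an unadjusted limma p under 0.05, against 9.99%. Nr4a2, a paralog of Nr4a3, had 2.40 and 2.26 at 72 h against 3.98 and 3.80 at 0 h (log2 change -0.72, SE 0.07, limma adjusted p = 0.0456). Without any single library it missed the threshold, with limma adjusted p from 0.0592 to 0.167. The third paralog, Nr4a1, had 0.645 and 0.701 at 72 h against 0.575 and 0.372 at 0 h (limma adjusted p = 0.508). Cilp2, the paralog of Cilp, had 0.0128 and 0.0137 at 72 h against 0.0133 and 0.0505 at 0 h (limma adjusted p = 0.736). Mybpc2, the fast skeletal form, had 0.0375 and 0.0379 at 72 h against 0.0909 and 0.0542 at 0 h (limma adjusted p = 0.696). Mybpc3, the cardiac form, had 0.0218 and 0.0333 at 72 h against 0.0252 and 0.0126 at 0 h (limma adjusted p = 0.726), and Mybph was at 0 in every library. The other 5 with an unadjusted p under 0.05 were Tnfrsf22, given above, Tnfsf10, Runx1t1, Cbfa2t2 and Apobec3. Tnfsf10, the ligand TRAIL that Tnfrsf23 binds, had 0.0855 and 0.119 at 72 h against 0.0441 and 0.0528 at 0 h (limma adjusted p = 0.262). Of the paralogs of Cbfa2t3, Runx1t1 had 1.39 and 1.44 at 72 h against 2.05 and 1.92 at 0 h (limma adjusted p = 0.107), and Cbfa2t2 had 2.57 and 2.67 at 72 h against 2.19 and 2.03 at 0 h (limma adjusted p = 0.157). Apobec3, of the family of Apobec2, had 0.787 and 0.756 at 72 h against 0.576 and 0.615 at 0 h (limma adjusted p = 0.269). For Uba7, its modifier Isg15 had 0.504 and 0.394 at 72 h against 0.343 and 0.350 at 0 h (limma adjusted p = 0.702), and for Fkbp1b the ryanodine receptor gene Ryr1 had 0.0436 and 0.0424 at 72 h against 0.0382 and 0.0379 at 0 h (limma adjusted p = 0.906).

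Mybpc1 and Cilp were set beside lists of other muscle and cartilage genes, none of which passed the test. Of 44 other skeletal muscle structure genes tested by limma, 0 passed at 24 h and 0 at 72 h against 0 h, with 3 and 5 at an unadjusted p under 0.05, against 8.34% and 9.99% of all genes, and the median log2 change at 72 h was 0.03. Their summed signal was 6.33 to 6.66 at 72 h and 6.10 to 6.28 at 0 h. Of 13 myogenic regulators tested, 0 passed at either time, with 1 at 24 h and 3 at 72 h at an unadjusted p under 0.05. Their sum was 9.78 to 9.98 at 72 h and 10.99 to 11.62 at 0 h, and Myod1, Myf5, Myf6 and Myog were at 0 in every library. Of 27 other cartilage and related matrix genes tested, 0 passed at either time, with 0 at 24 h and 2 at 72 h at an unadjusted p under 0.05. Their sum was 1.85 to 1.93 at 72 h and 1.84 to 2.08 at 0 h.

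Markers of other cells that a culture might hold also gave 0 calls by limma at either time. Over all genes, an unadjusted p under 0.05 was found for 9.99% at 72 h and 8.34% at 24 h, and the immune, neuronal and other pituitary lists had larger shares at 72 h. Fibroblast markers, 13 tested, summed to 1.96 to 2.04 at 72 h and 2.24 to 2.25 at 0 h, with Col1a2 and Lum at 0 in every library. Endothelial markers, 9 tested, summed to 1.54 to 1.83 at 72 h and 1.44 to 1.76 at 0 h, with Kdr at 0 in every library; 0 of either list had an unadjusted p under 0.05. Immune markers, 8 tested, summed to 0.678 to 0.789 at 72 h and 0.566 to 0.579 at 0 h, with 3 at an unadjusted p under 0.05 at 72 h and 0 at 24 h, and Cd3e at 0 in every library. Neuronal markers, 12 tested, summed to 37.9 to 40.8 at 72 h and 46.5 to 57.6 at 0 h, with 4 at an unadjusted p under 0.05 at 72 h and 3 at 24 h. Markers of other pituitary lineages, 12 tested, summed to 2.11 to 2.61 at 72 h and 3.01 to 3.22 at 0 h, with 4 at an unadjusted p under 0.05 at 72 h and 1 at 24 h. Prl and Tshb were among those at 0 in every library.

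Among melanotrope genes, 2 of 7 tested rose at 72 h, against 0.133% of all genes, and 0 fell, against 0.0743%. The median log2 change of the list at 72 h was only 0.09, which is the value of Pomc, a listed gene that corticotropes also make. Of the 8 genes listed, 1 was at 0 in every library and 2 had both 72 h values under 0.1. At 24 h 0 passed, with 2 at an unadjusted limma p under 0.05, against 8.34% of all genes. Oacyl, which met the thresholds of the 19 but was left out by name, had 0.618 and 0.635 at 72 h against 0.0129 and 0.0171 at 0 h (limma adjusted p = 0.0283). Pcsk2, the prohormone convertase that melanotropes use to cut Pomc further, had 0.845 and 0.822 at 72 h against 0.325 and 0.294 at 0 h (limma adjusted p = 0.0323). Leaving out single libraries took the adjusted p as high as 0.118 for both; Oacyl passed in 2 and Pcsk2 in 1 of 8 such fits. Both were known from earlier results of these data, and the 72 h test of Oacyl uses values that the thresholds also used. The 2 of 7 is therefore a description and no test of the list. Of 10 corticotrope genes, 0 rose and 1 fell at 72 h, and 0 passed at 24 h. The 1 was Nr4a2, which missed the threshold without any single library, as given above. An unadjusted limma p under 0.05 was found for 3 at 24 h and 5 at 72 h, against 8.34% and 9.99% of all genes. The median log2 change of the list at 72 h was 0.15.

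The thresholds divide genes of nearly the same values. At the 0 h ceiling, Nr4a3 had a higher 0 h value of 0.148, and outside it E230032D23Rik had one of 0.165 and Gas6 one of 0.167. At the 72 h floor, Gm7854 had a lower 72 h value of 0.101 and Klhl4, outside, one of 0.0960. At the ratio of the lower 72 h to the higher 0 h value, Gm8256 had 2.05 and Ntng2, outside, 1.98. In all, 34 genes failed only the ceiling, 270 only the floor and 140 only the ratio. Cd74, set aside, had a signal of 0.341 and 0.0795 at 24 h, so its libraries differed more there than its 72 h values, 0.253 and 0.241, did from its 0 h values, 0.1002 and 0.0745.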

How the data were processed

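The deposited values are a signal, normalized by the authors and read from the values and columns as mean coverage over merged exons. The sources used here do not give how they were scaled, which tool counted reads or whether strand was used. Per the submitters' processing notes, HISAT2 2.2, SAMtools 1.12, deepTools 3.5 and the build mm10 (GRCm38) were involved. Genomic DNA stands in the labels' molecule field, against RNA with ribosomal depletion in their extraction protocol; values were taken as RNA.

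The rule was applied to the deposited values. A member was set aside where the next gene by start position was within 5% of it in a 48 or 72 h library. One limma 3.58.1 fit in R 4.3.3, with an intensity trend, took log2(signal + 0.1) of all 37675 genes above 0 in at least 1 of 8 libraries. Group was the only term, with 4 residual degrees of freedom and Benjamini-Hochberg adjustment over all genes at 0.05. A run on simulated data checked only that the largest changes were recovered more often than the smallest. Members were tested at 24 h only; the 72 h test of other genes was added after seeing the data. Genes were named by rule: here all 19 members, genes at the thresholds and listed genes; others are said to be chosen later. Members, gene lists and tests were chosen with earlier results of these data known. Annotations are from GENCODE M21, in which 18 of the 19 members have the same coordinates; coordinates are those of the files. Promoter sequences are from RefSeq for GRCm38. Python 3.11.15, pandas 2.3.3 and numpy 2.4.6 were used.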

Additional observations from a re-analysis of the deposited data

How the results depend on the processing

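The 19 members became 11 with a 72 h floor of 0.2, 4 with at least 4 times the higher 0 h value and 12 with a length of at least 2000. The other planned settings gave 14 to 24. Taking the 3 nearest genes on each side gave 17, since Gm572 and Gm48435 then had a near-equal neighbour and were set aside. Quantile normalization gave 18, with 4 members lost and 3 genes gained. Leaving out single libraries gave 19 to 43, the highest without 72 h replicate 1, since 1 library then sets the threshold and the rule can only gain genes. Genes with both 24 h values above both 0 h values were 14 of 19, 4 of 4 under the stricter ratio and 9 of 12 under the stricter length, and 14 to 30 without single libraries. Genes called at 24 h were 3, but 29 with a mean signal of at least 0.1, 11 with a length of at least 1000, 9 after trimmed mean rescaling, 7 after quantile normalization, 0 with only the 0 and 24 h libraries, and 0 to 219 without single libraries. Members called at 24 h were 1 with a mean of at least 0.1 (14 members tested) and 0 in the other settings. The 1 was Cilp, with a log2 change of 1.17. That mean was taken over all libraries, so the filter drew on later values that also made the members. The call of Cilp is therefore no independent test. Without single libraries, the log2 change was 1.09 to 1.25 for Cilp and 0.48 to 0.63 for Mybpc1. Neighbours called at 72 h were 5 with a mean of at least 0.1 (Clpx, Cpeb2, Gas6, Tnfrsf22 and Traip), 2 with a length of at least 1000, and 0 to 0 without single libraries. Genes of the opposite direction were 20 to 78 without single libraries. The cause was not tested, beyond fewer genes tested or fewer libraries. With the replicate block, 0 genes passed at 24 h and 0 neighbours at 72 h, and Nr4a2, Cpeb2, Sema4c, Pcsk2 and Oacyl missed the threshold (adjusted p = 0.131, 0.111, 0.107, 0.106 and 0.0928). Deviations of same-numbered libraries correlated at 0.0094 to 0.397, over 0.1 for some pairs of times and under it for others. The labels do not say whether same-numbered libraries were handled together, so neither fit can be preferred on this ground. Sema4c, near Fam178b and seen after its values, had 3.89 and 3.85 at 72 h against 2.35 and 2.49 at 0 h (limma adjusted p = 0.0323). Read depth, which is not given, limits all values this low.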
